A study of Mus musculus with 18 samples.

Results

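The genes described here are those of the SHP and FGF15 arms of bile acid feedback in mouse liver: *Nr0b2*, *Nr5a2*, *Fgf15*, *Fgfr4* and *Klb*. They were taken by symbol from the annotation of the array platform, which gives them 13 of the 22690 probe sets, 5 of the 12394 genes that carry 1 symbol. Liver RNA of 18 male C57BL/6J mice, 10 to 16 weeks old, was hybridised to 1 array per mouse, and the arrays form 6 groups of 3: WT, Liver Fxr KO and Whole body Fxr KO mice, each given vehicle or GW4064, a synthetic agonist of FXR, by oral gavage. By the labels GW4064 was given at 150 mg per kg in 2 doses, one in the evening and one on the morning after, with livers taken 2 hours after the second, whereas the study's methods, which cover the WT mice, give a lower dose on one more occasion and an overnight fast. The liver knockout, labelled AFXR Cre+, carries floxed *Nr1h4* alleles and a Cre driven by albumin, which is expressed in hepatocytes, so other liver cells keep the gene. How the whole body knockout was made is not stated in the labels. The control of both knockouts here is the WT group, which carries neither the floxed alleles nor the Cre. Nothing in the labels ties same-numbered replicates to each other.

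Bile acids activate FXR, a nuclear receptor encoded by *Nr1h4*, in the liver and in the small intestine. In the liver FXR induces *Nr0b2*, and its product SHP, a nuclear receptor without a DNA-binding domain, represses transcription by binding to other factors, among them LRH-1 (the product of *Nr5a2*) and HNF4α. In the ileum FXR induces *Fgf15*, a hormone that reaches the liver through the portal blood and acts there on FGFR4 together with its co-receptor β-Klotho (*Klb*). Both arms are known to lower *Cyp7a1*, the rate-limiting enzyme of bile acid synthesis, and *Cyp8b1*, the hydroxylase needed for cholic acid. A mouse without FXR in hepatocytes keeps the receptor in the intestine, and a mouse without it in the whole body lacks both sources of feedback.

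The values are log2 expression levels from RMA, so a difference of 1 is a doubling. Array medians lay between 5.96 and 6.00. *Nr1h4* lay between 8.83 and 9.39 on the 6 WT arrays and between 3.98 and 4.69 on the 12 knockout arrays, with no overlap. The 7 hepatocyte markers measured had means between 12.24 and 14.89. WT GW4064 replicate 1 and Whole body Fxr KO GW4064 replicate 3 had the widest spread of relative expression (interquartile range 0.259 and 0.231) and the lowest mean correlation with all other arrays (0.98445 and 0.98383), against at least 0.99104 elsewhere. In a piece of whole liver, fewer cells of a type and less RNA per cell cannot be told apart. Whether replicates came from separate litters or days is not stated, and p-values measure only the spread between these mice.

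The promoters of *Nr0b2* and *Fgfr4* are shown because the first gene passed the test with GW4064 in WT livers and the second passed in no comparison, and both windows hold letters of the kind that LRH-1 binds. They run from 250 bases before to 50 bases after the start of the gene in RefSeq (GRCm38.p6), *Nr0b2* at chr4:133553126-133553425 and *Fgfr4* at chr13:55152568-55152867, both on the plus strand. Capitals mark matches on either strand to the short LRH-1 form TCAAGG and to its variant CAAGGNC. The nuclear receptor half-site AGGTCA was searched as well and had no match in these windows.

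Nr0b2: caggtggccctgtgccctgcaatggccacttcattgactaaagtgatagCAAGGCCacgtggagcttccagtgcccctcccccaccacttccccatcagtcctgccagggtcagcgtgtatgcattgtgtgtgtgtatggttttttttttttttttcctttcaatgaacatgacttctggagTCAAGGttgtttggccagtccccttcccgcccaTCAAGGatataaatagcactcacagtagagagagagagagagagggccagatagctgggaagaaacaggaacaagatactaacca

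Fgfr4: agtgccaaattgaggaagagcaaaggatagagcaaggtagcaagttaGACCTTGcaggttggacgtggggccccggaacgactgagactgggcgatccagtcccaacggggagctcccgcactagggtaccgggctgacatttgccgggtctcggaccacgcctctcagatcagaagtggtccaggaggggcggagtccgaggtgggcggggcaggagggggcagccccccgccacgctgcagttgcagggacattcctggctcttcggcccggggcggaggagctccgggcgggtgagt

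In the *Nr0b2* window CAAGGCC stands at position -201 from the start site and TCAAGG at -68 and at -35, all on the strand of the gene. In the *Fgfr4* window the complement of CAAGGNC stands at -203. The longer LRH-1 form TCAAGGNCA contains both short forms. The inverted repeat of the half-site that FXR binds, IR1, contains the half-site on each strand. Both were also searched on both strands and had no match in any window of *Nr0b2*, *Nr5a2*, *Fgfr4* or *Klb*. *Fgf15* had no window and was not searched. The short forms are common. Of the 32851 promoter windows of mouse genes in RefSeq, 14.4% hold the first short form, 17.8% its variant, 16.3% the half-site, 1.62% the longer form and 0.00913% the inverted repeat. Of the other genes, *Nr5a2* has 2 windows on chromosome 1, one with AGGTCA at -64, and *Klb* has 1 window with none of these letters. A match describes the letters and is not evidence of a bound site. Only exact letters in these short windows were searched, so the lack of a match is not evidence that FXR or LRH-1 does not bind the gene.

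Of the 5 genes, *Nr0b2*, the gene of SHP, was the only one whose level passed the adjusted test in any of the 11 comparisons. It was higher with GW4064 in WT livers and lower in Whole body Fxr KO than in WT livers when both had GW4064. *Nr5a2*, *Fgfr4* and *Klb*, which encode the partner receptor and the machinery that reads FGF15, passed in none, and neither did *Fgf15*, the ligand.

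*Nr0b2* is read by a single probe set (1449854_at). In WT livers it was 7.85, 7.86 and 8.21 with vehicle and 10.84, 9.59 and 9.04 with GW4064. The Liver Fxr KO livers were at 7.56, 8.01 and 8.18 with vehicle and at 8.78, 9.04 and 8.66 with GW4064. In Whole body Fxr KO livers it was 8.77, 8.16 and 8.16 with vehicle and 8.04, 7.77 and 7.04 with GW4064. Within each genotype the GW4064 arrays did not overlap the vehicle arrays, above them in WT and Liver Fxr KO mice and below them in Whole body Fxr KO mice. Groups failed to overlap for 14.7%, 12.2% and 10.3% of all genes in these comparisons.

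**Figure D1:**
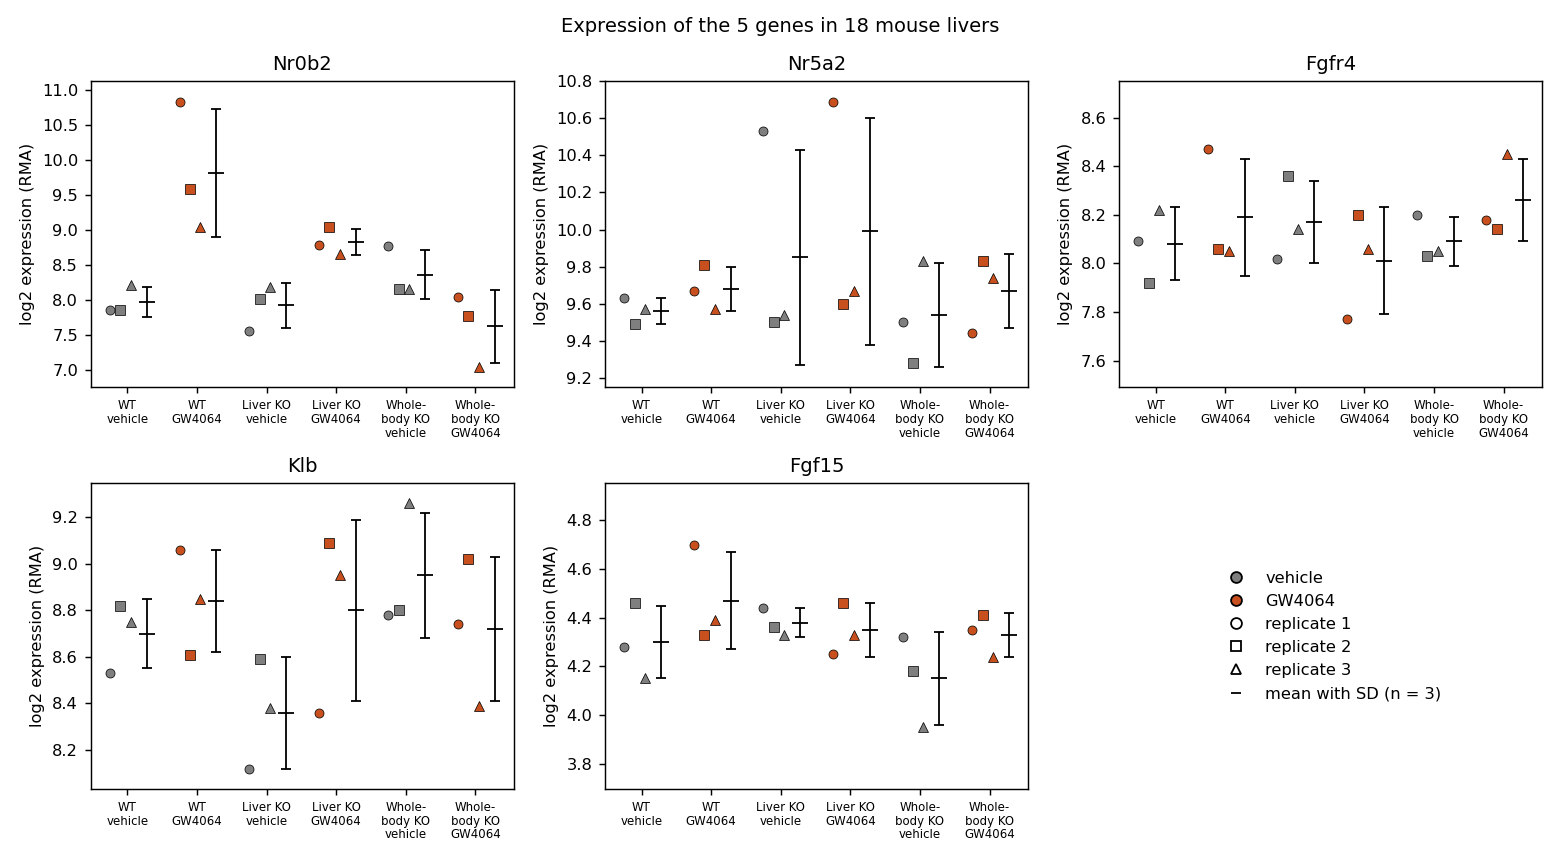
Log2 expression of *Nr0b2*, *Nr5a2*, *Fgfr4*, *Klb* and *Fgf15* on each of 18 arrays (1 mouse each; grey, vehicle; orange, GW4064; the marker shape gives the replicate number), with the mean and SD of each group (n = 3) beside the points and a vertical axis of its own in each panel. *Nr0b2* spans 7.04 to 10.84, *Fgf15* 3.95 to 4.70, and the 2 high *Nr5a2* points at 10.53 and 10.69 are replicate 1 of the Liver Fxr KO groups.

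The mean of *Nr0b2* rose with GW4064 in WT livers from 7.97 ± 0.21 to 9.82 ± 0.92 (SD, n = 3), a log2 difference of 1.85 (standard error 0.34) or 3.60 fold, with an adjusted p of 0.0433 in limma. It ranked 12 by p among all genes, of which 24, or 0.194%, passed. The call needed nearly every WT array: without WT GW4064 replicate 1 the difference was 1.34 (adjusted p = 0.201), and it was also lost when GW4064 replicate 2 or any of the vehicle replicates was left out, whereas without GW4064 replicate 3 it was 2.24 (adjusted p = 0.00172). Calls over all genes fell likewise, from 24 to 2 and 1 without GW4064 replicates 1 and 2. They fell to 1, 10 and 1 without vehicle replicates 1, 2 and 3, and rose to 268 without GW4064 replicate 3. With any of the 5 arrays left out that cost the call, the unadjusted p of *Nr0b2* in limma was at most 0.000361. The adjusted p was under 0.05 in 7 of 17 alternatives, from 0.00172 to 0.706 in all. The direction was the same in all 17. Several of them, among them the fit on the compared groups alone and the methods' t-test, could not change the difference of 1.85.

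In Liver Fxr KO livers the log2 difference of *Nr0b2* was 0.91 (standard error 0.34, 95% interval 0.18 to 1.63, unadjusted p = 0.0171 in limma), which did not pass after adjustment over all genes (adjusted p = 0.894). The lowest GW4064 array, 8.66, was above the highest vehicle array, 8.18. None of the 5 genes passed in this comparison, in which limma called 0% of all genes (0 after adjustment, 622 at an unadjusted p under 0.05, and 0 by the methods' t-test after Benjamini-Hochberg adjustment). At an unadjusted p under 0.05 and 1.5 fold, *Nr0b2* was 1 of 57 genes by limma and 1 of 36 by the methods' t-test.

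In Whole body Fxr KO livers the difference of *Nr0b2* was -0.75 (standard error 0.34, 95% interval -1.47 to -0.02, unadjusted p = 0.0442, adjusted p = 0.794 in limma). Here too 0% of all genes passed (0 after adjustment, 775 at an unadjusted p under 0.05, 0 by the methods' t-test after the same adjustment), and none of the 5 genes did. At an unadjusted p under 0.05 and 1.5 fold, *Nr0b2* was 1 of 67 genes by limma, but it did not meet these thresholds by the methods' t-test. The lowest value of the series, 7.04, is that of replicate 3, one of the arrays with a wide spread, and without it the difference was -0.46.

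The GW4064 effects on *Nr0b2* were compared directly. That in WT exceeded that in Whole body Fxr KO mice by 2.59 (standard error 0.48, 95% interval 1.57 to 3.62), the third smallest p among all genes (5.64e-05), but with an adjusted p of 0.193. Without WT GW4064 replicate 3 the difference of effects was 2.98 and passed (adjusted p = 0.00698). The effect in Liver Fxr KO exceeded that in Whole body Fxr KO mice by 1.65 (standard error 0.48, unadjusted p = 0.0034, adjusted p = 0.815), and that in WT exceeded that in Liver Fxr KO mice by 0.94 (95% interval -0.08 to 1.97, unadjusted p = 0.0688, adjusted p = 0.700). These comparisons share arrays, and limma called 0% of all genes in each (0 after adjustment; 1017, 604 and 925 at an unadjusted p under 0.05).

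**Figure D2:**
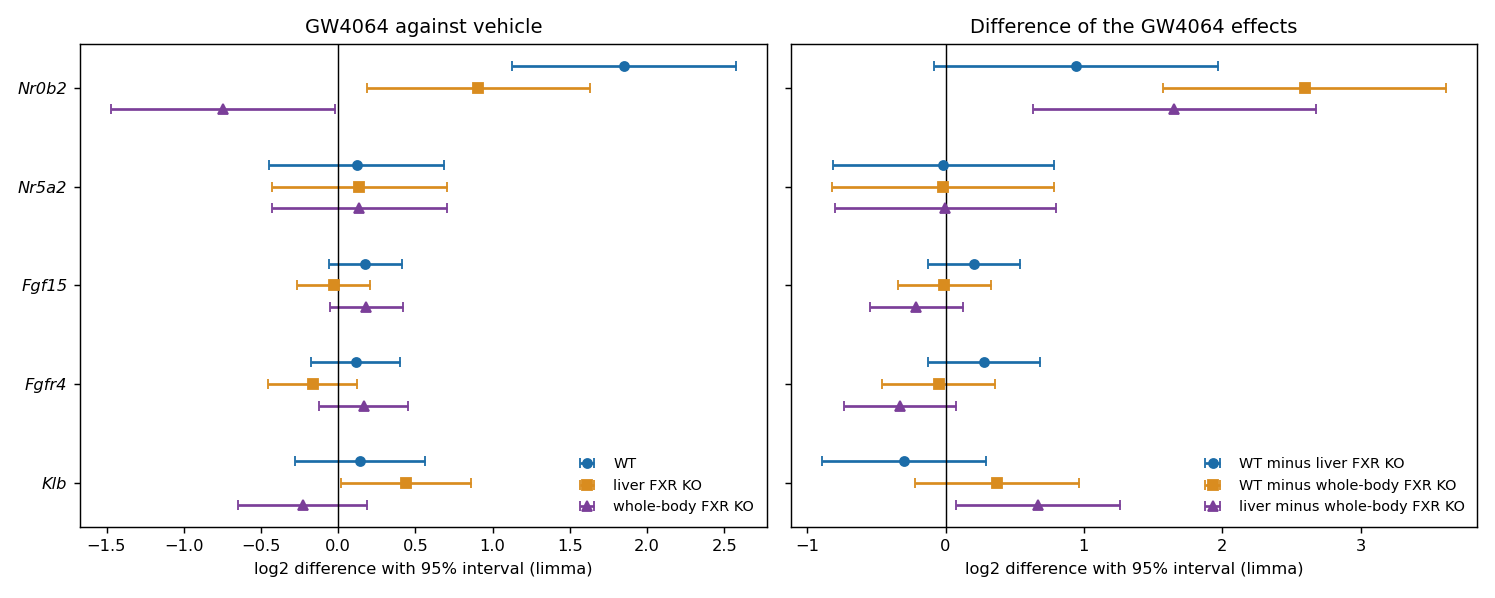
Log2 differences with 95% intervals from limma (n = 3 arrays per group) for the 5 genes: on the left GW4064 against vehicle in each genotype, on the right the differences between those effects. *Nr0b2* lies at 1.85, 0.91 and -0.75 on the left and at 0.94, 2.59 and 1.65 on the right, and the intervals of *Nr5a2*, *Fgf15* and *Fgfr4* include 0 throughout.

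With vehicle, the arrays of all genotypes overlapped for *Nr0b2*. The group means were 7.97 ± 0.21 in WT, 7.92 ± 0.32 in Liver Fxr KO and 8.36 ± 0.35 in Whole body Fxr KO livers (SD, n = 3). Liver Fxr KO differed from WT by -0.05 (95% interval -0.78 to 0.67) and Whole body Fxr KO by 0.39 (-0.33 to 1.11), neither past the threshold (adjusted p = 0.968 and 0.671 in limma). The interval reaches 1.11 in the second case. None of the 5 genes passed in either comparison, in which 0.879% and 1.14% of all genes did, or between the knockouts, in which 0.678% did.

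With GW4064, *Nr0b2* was highest in WT (9.82), intermediate in Liver Fxr KO (8.83 ± 0.19) and lowest in Whole body Fxr KO livers (7.62 ± 0.52), and the WT arrays did not overlap those of either knockout. Groups failed to overlap for 17.8% of all genes between Liver Fxr KO and WT livers, and for 19.8% between Whole body Fxr KO and WT livers. Whole body Fxr KO livers were 4.61 fold lower than WT (log2 difference -2.20, standard error 0.34, adjusted p = 0.00137 in limma), 1 of 5 genes in a comparison that called 4.64% of all genes. This call was lost only when the fit was confined to the compared groups (adjusted p = 0.104) and in the methods' t-test after adjustment (adjusted p = 0.396). Liver Fxr KO livers were lower than WT by a log2 difference of -0.997 (standard error 0.34, unadjusted p = 0.00989), which did not pass (adjusted p = 0.183, and adjusted p = 0.0308 without WT GW4064 replicate 3). None of the 5 genes passed there, against 1.06% of all genes. The closest values are 9.04 in both groups to 2 decimals, WT being the higher.

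*Nr5a2* encodes LRH-1, a receptor that drives bile acid synthesis genes and to which SHP binds. Its brightest probe set (1420410_at) read 9.63, 9.49 and 9.57 in WT livers with vehicle and 9.67, 9.81 and 9.57 with GW4064. Liver Fxr KO livers read 10.53, 9.50 and 9.54 with vehicle and 10.69, 9.60 and 9.67 with GW4064. In Whole body Fxr KO livers it read between 9.28 and 9.83 on all 6 arrays. All groups overlapped, but replicate 1 of each Liver Fxr KO group stood apart, the lower of them 0.70 above the highest of the other 16 arrays. GW4064 changed the mean by 0.12, 0.14 and 0.14 in WT, Liver Fxr KO and Whole body Fxr KO mice (95% interval in WT -0.45 to 0.68).

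The high reading of those 2 livers was seen on 1 of 4 probe sets. On 1456521_at, which read 9.27 on average, they were at 9.14 and 9.34, within the 9.07 to 9.43 of all arrays. On 1449706_s_at they were at 8.52 and 8.56, within 8.08 to 8.68. The remaining probe set, 1449707_at, read between 3.83 and 4.19 on every array. Of 12394 genes, each read by its brightest probe set, 1 gene, *Nr5a2* itself, had both of these arrays at least 0.5 above all others, and 1 had them at least 0.5 below. A dimmer probe set of *Ctse*, a gene named after its values were seen, also had both arrays that far above the rest. How many dimmer probe sets of all genes did so is not given here. Without the Liver Fxr KO vehicle replicate 1 array, the difference of *Nr5a2* between Liver Fxr KO and WT livers with vehicle went from 0.29 to -0.05. No probe set of *Nr5a2* passed in any comparison, and the smallest unadjusted p was 0.0325 (1449706_s_at, Liver Fxr KO against WT with vehicle, log2 difference 0.21, adjusted p = 0.352 over all probe sets).

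**Figure D3:**
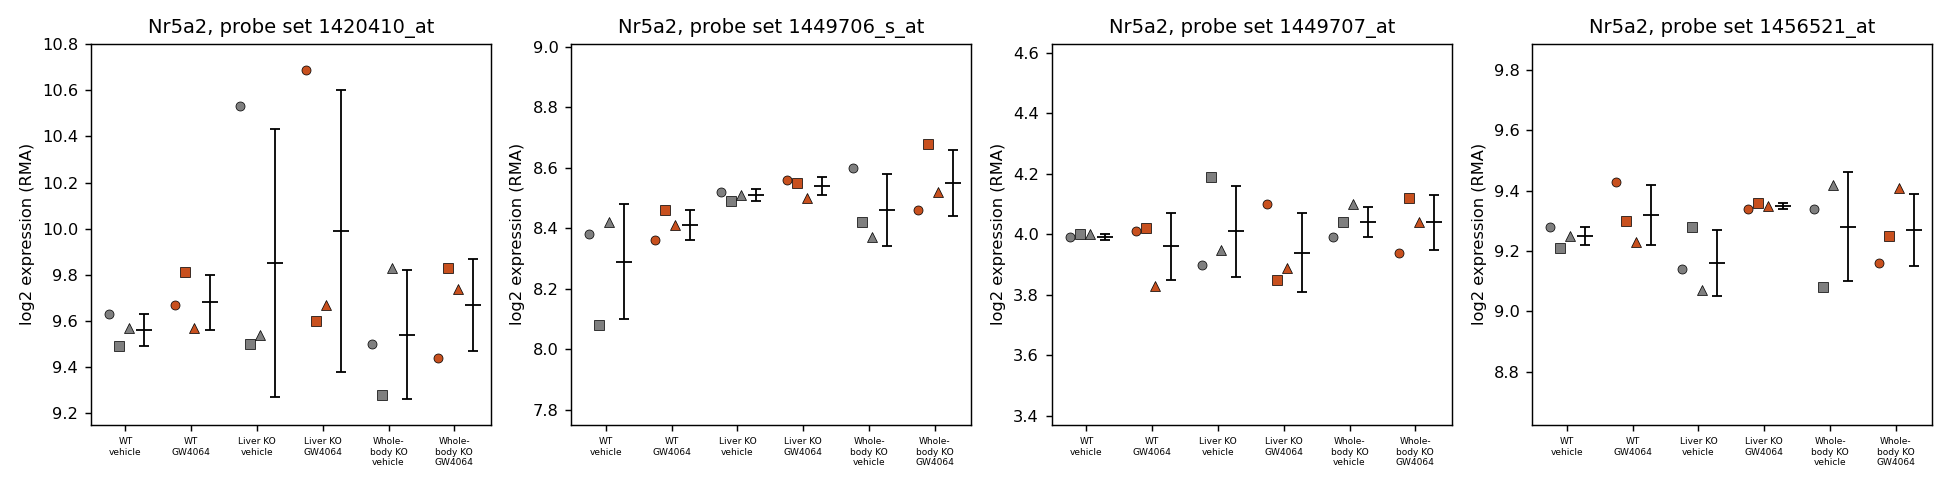
Log2 expression of the 4 *Nr5a2* probe sets on each array (grey, vehicle; orange, GW4064; circle, square and triangle are replicates 1, 2 and 3), with mean and SD (n = 3); each panel has its own vertical axis. The 2 Liver Fxr KO replicate 1 points stand apart at 10.53 and 10.69 on 1420410_at and lie among the others on the remaining 3 probe sets.

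*Fgf15* encodes the hormone that the ileum releases in response to FXR. Its probe set (1418376_at) read 4.28, 4.46 and 4.15 in WT livers with vehicle and 4.70, 4.33 and 4.39 with GW4064. Over all arrays it read between 3.95 and 4.70. The values carry no call of presence, so whether the transcript was detected is not known. The GW4064 effects were 0.18, -0.03 and 0.18 in WT, Liver Fxr KO and Whole body Fxr KO mice, with 95% intervals that reach at most 0.42. Between the knockouts with vehicle the arrays did not overlap (3.95 to 4.32 in Whole body Fxr KO, 4.33 to 4.44 in Liver Fxr KO), a log2 difference of -0.23 that did not pass (adjusted p = 0.432), and 21.4% of all genes did not overlap in that comparison. The median of 8 enterocyte markers, relative to the WT vehicle mean, lay between -0.14 and 0.07 on every array. The liver arrays hold no measurement of the ileum, so the level of the circulating hormone is not given by them.

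*Fgfr4* encodes the main FGF15 receptor of hepatocytes. Its brightest probe set (1418596_at) had group means between 8.01 and 8.26, and SDs between 0.10 and 0.24 (n = 3). The arrays ranged from 7.77 to 8.47, and every pair of neighbouring groups overlapped. GW4064 changed it by 0.11 in WT (95% interval -0.17 to 0.40), by -0.17 in Liver Fxr KO and by 0.16 in Whole body Fxr KO mice. These intervals leave room for changes of up to 0.45 on the log2 scale, and a change of the size seen for *Nr0b2* in WT (1.85) lies outside them. The other 4 probe sets read lower, with means of 6.58, 6.38, 5.12 and 4.03. One of them, 1427777_x_at, read 6.73, 6.55 and 6.38 in WT and 5.97, 6.38 and 6.18 in Liver Fxr KO livers with GW4064, a log2 difference of -0.38 that did not pass over all probe sets (unadjusted p = 0.00169, adjusted p = 0.0905). The other probe sets of the gene gave no smaller p in any comparison.

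*Klb* encodes β-Klotho, which FGFR4 needs in order to bind FGF15. Its brightest probe set (1449568_at) read 8.53, 8.82 and 8.75 in WT with vehicle and 9.06, 8.61 and 8.85 with GW4064. Liver Fxr KO livers read 8.12, 8.59 and 8.38 with vehicle and 8.36, 9.09 and 8.95 with GW4064. In Whole body Fxr KO livers it read 8.78, 8.80 and 9.26 with vehicle and 8.74, 9.02 and 8.39 with GW4064. The lowest group was thus Liver Fxr KO with vehicle, and it did not overlap Whole body Fxr KO with vehicle, as was so for 21.4% of all genes. That difference was 0.59 (standard error 0.20, unadjusted p = 0.0089, adjusted p = 0.211), and against WT the Liver Fxr KO group differed by -0.34 (95% interval -0.76 to 0.08). With GW4064 the level changed by 0.14 in WT, by 0.44 in Liver Fxr KO (unadjusted p = 0.0407, adjusted p = 0.983) and by -0.23 in Whole body Fxr KO mice. The effects in the knockouts differed by 0.67 (standard error 0.28, unadjusted p = 0.029, adjusted p = 0.970). The second probe set, 1426075_at, read 3.99 on average with group means from 3.85 to 4.20. On it the knockouts with vehicle differed by -0.04 and GW4064 changed the level in Liver Fxr KO mice by -0.14. The effects in the knockouts differed there by -0.10.

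The genes that SHP and FGF15 are known to repress were set beside the 5 genes. *Cyp8b1* read 12.23, 11.81 and 11.65 in WT livers with vehicle and 8.12, 9.79 and 10.46 with GW4064. Liver Fxr KO livers read 11.94, 11.96 and 12.11 with vehicle and 11.30, 10.48 and 11.61 with GW4064. In Whole body Fxr KO livers it read between 12.41 and 12.80 with vehicle and 12.56, 12.48 and 11.77 with GW4064. Among the WT livers given GW4064, that with the highest *Nr0b2* had the lowest *Cyp8b1*, and that with the lowest *Nr0b2* the highest. No such order was seen over all groups: the liver with the highest *Nr0b2* had the lowest *Cyp8b1* of its group in 3 of 6 groups (both WT groups and Liver Fxr KO with GW4064) and the highest in the other 3. With 3 arrays in a group this is a description.

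The fall of *Cyp8b1* in WT was -2.44 (standard error 0.42, adjusted p = 0.0433 in limma), a call kept in 9 of 17 alternatives. Without WT GW4064 replicate 1 it was -1.77, and leaving out that array, GW4064 replicate 2 or any of the WT vehicle arrays took the adjusted p past 0.05, up to 0.127. In those runs 1 to 10 of all genes passed, against 24 with all arrays. In Liver Fxr KO livers, in which none of the GW4064 arrays overlapped the vehicle arrays, the difference was -0.87 (unadjusted p = 0.0525, adjusted p = 0.996), and in Whole body Fxr KO livers it was -0.34 (adjusted p = 0.937). *Cyp7a1* read 10.75, 10.44 and 10.61 in WT livers with vehicle and 5.82, 7.18 and 10.19 with GW4064. It read 10.38, 11.13 and 11.29 in Liver Fxr KO livers with vehicle and 9.64, 10.04 and 10.17 with GW4064, and between 10.85 and 12.26 on all 6 Whole body Fxr KO arrays. The differences with GW4064 were -2.87, -0.98 and 0.32 in the order of the genotypes, and none passed (adjusted p = 0.111, 0.9996 and 0.967). WT GW4064 replicate 3 decided this for *Cyp7a1* in WT: without it the difference was -4.10 (adjusted p = 4.73e-05), and without replicate 1 it was -1.92 (adjusted p = 0.426). With GW4064, Whole body Fxr KO livers had 7.03 fold more *Cyp8b1* (adjusted p = 0.000955) and 14.1 fold more *Cyp7a1* (adjusted p = 0.00426) than WT livers, opposite to *Nr0b2*, in a comparison that shares its WT GW4064 arrays with the one above. Both calls were kept when any 1 array was left out, with log2 differences of 2.14 (without WT GW4064 replicate 1) to 3.32 for *Cyp8b1* and of 2.86 (without replicate 1) to 5.04 (without replicate 3) for *Cyp7a1*.

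**Figure D4:**
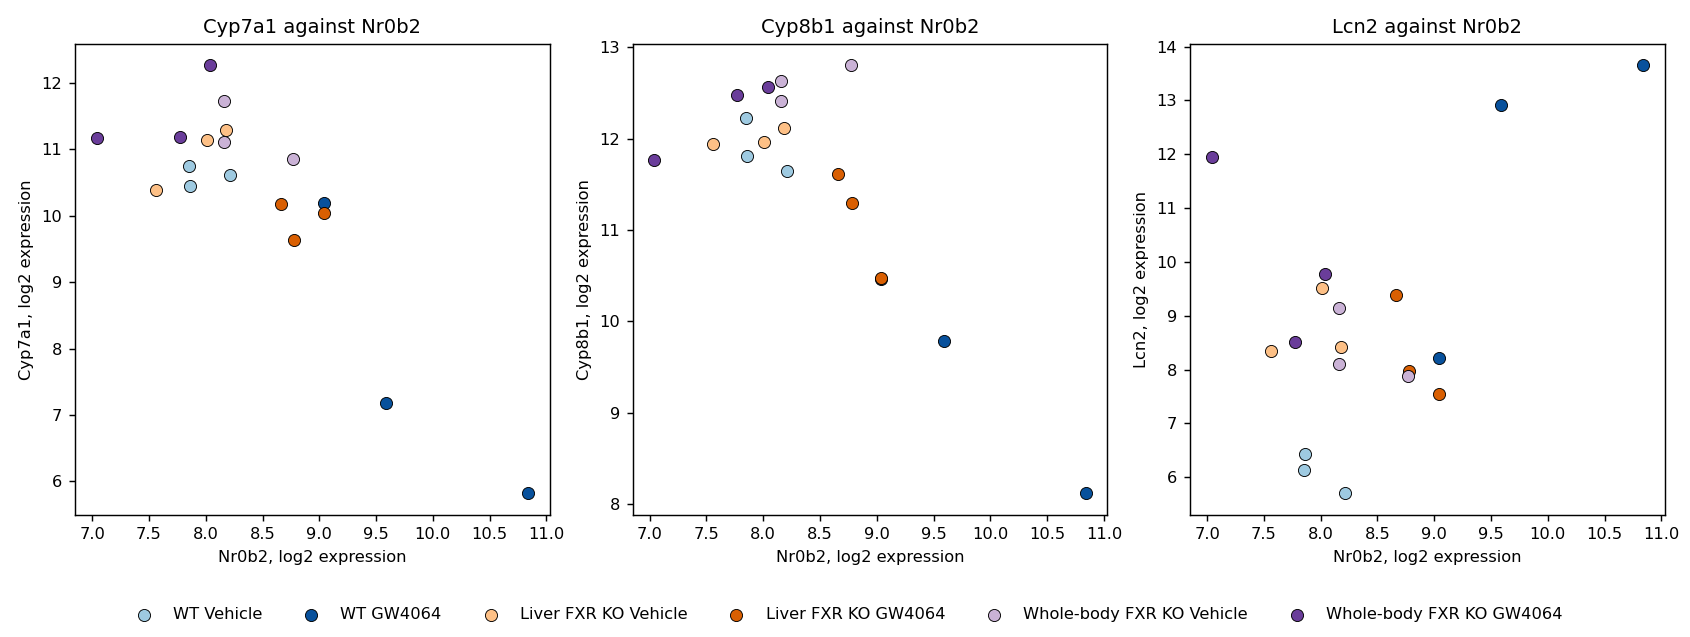
Log2 expression of *Cyp7a1*, *Cyp8b1* and the acute-phase gene *Lcn2* against that of *Nr0b2* on each of 18 arrays, coloured by group (n = 3). The 3 WT GW4064 arrays lie at *Nr0b2* 9.04, 9.59 and 10.84, with *Cyp8b1* at 10.46, 9.79 and 8.12 and *Lcn2* at 8.22, 12.91 and 13.65.

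Of 16 genes with LRH-1 sites or known to be repressed by SHP, 1 (*Cyp8b1*) passed with GW4064 in WT and none in either knockout. The median of the list was -0.05 in WT (all genes 0.00), 0.04 in Liver Fxr KO and 0.05 in Whole body Fxr KO mice. With GW4064, 4 were higher and 2 lower in Whole body Fxr KO than in WT livers. *G6pc*, the glucose-6-phosphatase of gluconeogenesis, was 3.72 fold higher (adjusted p = 0.00403), and *Plk3* was the remaining gene that was higher. The scavenger receptor gene *Scarb1*, which takes up cholesterol from HDL and is activated by LRH-1, was 1.61 fold lower (adjusted p = 0.00611), and *Pck1* was the other gene that was lower. The calls of *G6pc* and *Scarb1* were kept when any 1 array was left out. In Liver Fxr KO livers with GW4064, *G6pc* was 3.74 fold higher (adjusted p = 0.0107) and *Scarb1* 1.48 fold lower (adjusted p = 0.0486) than in WT livers, but *G6pc* did not pass without Liver Fxr KO GW4064 replicate 1 (adjusted p = 0.0708), and *Scarb1* passed only where WT GW4064 replicate 3 was the array left out (otherwise up to 0.244). *G6pc* read 9.38, 10.37 and 11.37 on the WT GW4064 arrays and 11.65 to 12.10 on the WT vehicle arrays.

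Of 22 partners and corepressors of SHP and LRH-1, *Nr1h4* passed in each comparison of a knockout with WT and nothing else passed with vehicle against WT. *Hnf4a*, which encodes a receptor of bile acid synthesis genes that SHP also binds, was lower in Whole body Fxr KO livers than in Liver Fxr KO livers with vehicle (log2 difference -0.47, adjusted p = 0.0481) and than in WT livers with GW4064 (-0.43, adjusted p = 0.0193). It read 11.98, 11.89 and 11.91 in Whole body Fxr KO livers with vehicle, below each of the 12 arrays of the other genotypes, which lay between 12.27 and 12.52. *Mafg*, the gene of a small bZIP repressor that FXR induces, was lower in Whole body Fxr KO than in WT livers with GW4064 (-0.58, adjusted p = 0.0321). The *Hnf4a* call with vehicle was lost whichever of the 6 arrays was left out (adjusted p = 0.0926 to 0.179), and that with GW4064 was lost without Whole body Fxr KO replicate 1 or 3 or WT replicate 1 (up to 0.0953). In the 6 runs with vehicle, 3 to 23 of all genes passed, against 84 with all arrays. The *Mafg* call was lost without replicate 1 or 2 of either group (up to 0.169). None of the list passed with GW4064 in any genotype, and its medians were 0.01, 0.00 and 0.00.

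The relay from FGFR4 to ERK was represented by 12 of 19 listed genes, among them the adaptors *Grb2* and *Gab1*, the phosphatase *Ptpn11* and the kinases *Braf* and *Map2k1*, and the other 7 were not analysed here. None of the 12 passed in any of the 11 comparisons, and the list's median lay between -0.05 and 0.06 in all of them. These are transcript levels, and signalling by phosphorylation is not measured by them. Of 9 other FGF receptors, co-receptors and ligands, none passed with GW4064 in any genotype, and *Fgf1* and *Fgfr2* were lower in Whole body Fxr KO than in WT livers with GW4064 (1.78 and 1.40 fold, adjusted p = 0.00607 and 0.0368). *Fgf1* read 9.86, 9.48 and 9.27 in WT with GW4064 and 8.74, 9.02 and 8.36 in Whole body Fxr KO livers. The *Fgf1* call was kept when any 1 array was left out, and that of *Fgfr2* was lost without WT GW4064 replicate 1 or Whole body Fxr KO GW4064 replicate 2 or 3 (adjusted p up to 0.188).

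Of 17 feedback inhibitors and immediate early genes downstream of ERK, none passed with GW4064 in any genotype. *Egr1*, an immediate early transcription factor, read 9.23, 7.52 and 7.61 in WT livers with vehicle and 6.87, 6.29 and 6.61 with GW4064, a difference of -1.53 (adjusted p = 0.148). Liver Fxr KO livers read 6.15, 6.65 and 6.30 with vehicle and 6.70, 6.79 and 7.08 with GW4064. In Whole body Fxr KO livers it read between 7.34 and 9.09 on all 6 arrays, and with vehicle it was 3.78 fold higher than in Liver Fxr KO livers (adjusted p = 0.0494), a call lost whichever of the 6 arrays was left out (adjusted p = 0.103 to 0.194). In those runs 3 to 23 of all genes passed, against 84 with all arrays. *Spred1*, an inhibitor of RAS to ERK signalling, read 7.61, 7.41 and 7.21 in WT with vehicle and 8.10, 7.87 and 7.89 with GW4064, a difference of 0.54 (unadjusted p = 0.000482, adjusted p = 0.0919, and 0.0495 without WT GW4064 replicate 3). With GW4064, *Spred1* and *Ier2* were 1.60 and 1.86 fold lower in Whole body Fxr KO than in WT livers, and the MAP kinase phosphatase gene *Dusp1* was 2.99 fold higher (adjusted p = 0.00497, 0.015 and 0.0258). The *Spred1* call was kept when any 1 array was left out, that of *Ier2* was lost without WT replicate 1 or Whole body Fxr KO replicate 3 (up to 0.0641), and that of *Dusp1* without replicate 1 or 2 of either group (up to 0.116).

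**Figure D5:**
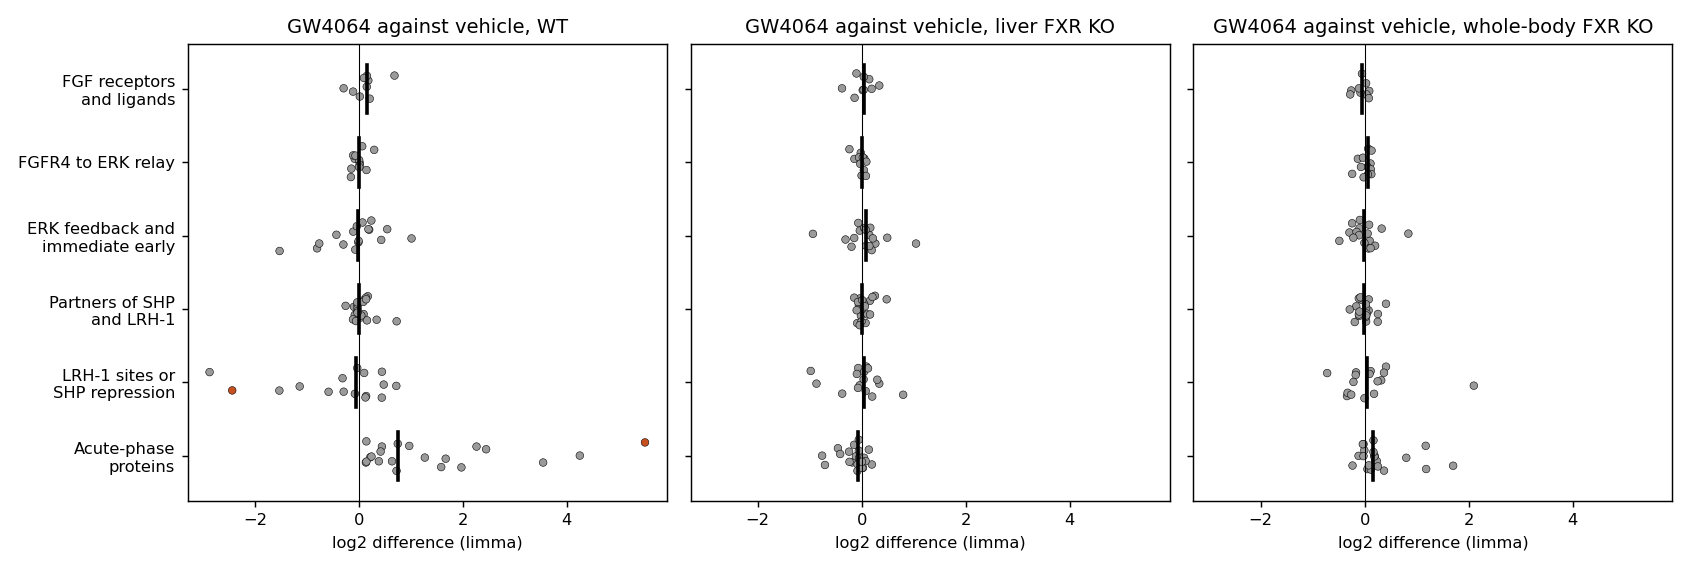
Log2 differences between GW4064 and vehicle (limma, n = 3 arrays per group) for the genes of 6 lists in each genotype; each point is a gene, orange where its adjusted p is under 0.05, with a black bar at the list's median and random vertical scatter. Only *Cyp8b1* (-2.44) and *Lcn2* (5.50) in WT passed, and the acute-phase list, all 21 genes of which lie above 0 in WT, has its median at 0.75 there.

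Other lists moved on the same WT arrays as *Nr0b2*. Of 21 acute-phase genes, 1 (*Lcn2*, a siderophore-binding protein) passed in WT with GW4064, all 21 lay above 0, and their median difference was 0.75 (all genes 0.00). Relative to the WT vehicle mean the list's median was 1.24, 0.85 and 0.22 on WT GW4064 replicates 1, 2 and 3 and between -0.05 and 0.34 on the vehicle arrays of any genotype. On the same 3 arrays the median of 6 endothelial markers was -0.72, -0.34 and -0.11 and that of 6 stellate cell markers was -0.82, -0.26 and -0.19, against -0.12 to 0.16 in WT with vehicle. Those of 7 macrophage and neutrophil markers were 0.01, 0.59 and -0.43, and none of these markers passed with GW4064 in WT. On the vehicle arrays of Liver Fxr KO mice the endothelial medians were 0.05 to 0.12 and the stellate ones -0.25 to -0.04. On those of Whole body Fxr KO mice they were already 0.20 to 0.34 and 0.21 to 0.33, though no marker of either list passed against WT with vehicle. With GW4064, 3 stellate markers (*Col3a1*, *Dcn* and *Col1a1*) and the endothelial *Lyve1* were higher, and 4 acute-phase genes (*Saa4*, *Orm3*, *Serpina3n* and *Itih3*) and *Fabp2* lower, in Whole body Fxr KO than in WT livers. With 1 array left out, the calls of the 3 stellate markers and *Fabp2* were kept, that of *Lyve1* was lost without WT GW4064 replicate 1 (adjusted p = 0.0503), and each of the 4 acute-phase genes was lost without WT GW4064 replicate 1 or 2, and all but *Saa4* also without either of 2 Whole body Fxr KO replicates (up to 0.174). The *Lcn2* call in WT was kept only where WT GW4064 replicate 3 was left out (otherwise up to 0.261, in runs in which 1 to 10 of all genes passed). The part of these shifts in the difference of *Nr0b2* was not tested. In Liver Fxr KO mice, in which *Nr0b2* was also higher on each GW4064 array, the acute-phase medians were 0.12 to 0.34 with vehicle and 0.05 to 0.25 with GW4064.

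The genes most like *Nr0b2*, *Nr5a2*, *Fgfr4* and *Klb* over the 18 arrays were named by Pearson correlation among 12130 genes, as a description of arrays that share their groups. For *Nr0b2* they were the water channel gene *Aqp4* (r = 0.885), the glycine receptor gene *Glrb* (0.862) and *Tmed4* (0.847). *Aqp4* read 4.42, 4.50 and 4.19 in WT with vehicle and 5.73, 5.12 and 5.01 with GW4064. *Glrb* read between 3.16 and 3.65 over all arrays, and whether either transcript was detected is not known. The r of *Aqp4*, *Glrb* and *Tmed4* with *Nr0b2* fell to 0.674, 0.579 and 0.617 without the 2 arrays farthest from the median of *Nr0b2*. For *Nr5a2* they were *Nmnat1*, *Eif4g2* and *Pcsk1* (0.867, 0.814 and 0.771), which fell to 0.201, 0.203 and 0.218 without the 2 high Liver Fxr KO arrays. For *Fgfr4* they were *Agfg1*, *Mrps23* and *Utp11* (0.889, 0.864 and 0.828), and for *Klb* they were *Zfp60*, *Ahcy* and *Cdkl2* (0.795, 0.767 and 0.759), all of which stayed at 0.609 or above.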

How the data were processed

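Total RNA of 18 mouse livers was labelled with biotin and hybridised to 1 array per mouse. The authors normalized the arrays with RMA, whose version is not given in the sources used here, and the deposited log2 values of each probe set were not transformed further. RMA corrects background, aligns the distributions of the arrays and summarises probes, so an overall shift between arrays is removed and low values are compressed. The methods name another array type than the one whose probe sets the values carry, and gene symbols come from the annotation of the latter: 20393 of 22690 probe sets have 1 symbol, 691 several and 1606 are unnamed here. A gene was represented by its probe set with the highest mean (12394 genes, 4958 with several probe sets), and no dim gene was left out.

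All 18 arrays entered 1 linear model with a coefficient per group (6 groups, 12 residual degrees of freedom), fitted and moderated by limma 3.58.1 (lmFit, eBayes; R 4.3.3). The two-sided p-values were corrected across the 12394 genes after Benjamini and Hochberg, and 0.05 was the threshold. Groups came from the sample labels. The 11 comparisons set treatment against vehicle within a genotype, genotypes against each other within a treatment, and treatment effects against each other. The members, lists and rule for named genes were chosen with earlier results of these data known. Apart from the members, the rule named *Nr1h4*, *Cyp7a1*, *Cyp8b1*, up to 4 genes a list and comparison past the threshold by p, and the 3 genes most correlated with each member but *Fgf15*; *Plk3* and *Pck1*, and genes named only for their role or as a list's highest or lowest, were chosen after their values were seen. Lists of 12 pathways and cell types were described by counts and medians. Tried besides were a fit on the compared groups alone, a prior both trended and robust, weighted arrays, centring on the median or by quantiles, the removal of the dimmest 40% of genes, probe sets taken singly or averaged per gene, a block for the replicate number, each array left out in turn, and the methods' t-test, adjusted or at an unadjusted p under 0.05 and 1.5 fold. The removal of both arrays with a wide spread was chosen after seeing the data. The test was checked on simulated data with 1 spread per gene in all groups. That check does not cover groups of unequal spread, such as *Nr0b2* in WT (SD 0.21 with vehicle, 0.92 with GW4064). The number of arrays limits the precision. Promoters were read from RefSeq (GRCm38.p6), in which 4 of 5 members were matched. Plots were drawn with matplotlib 3.10.9 in Python 3.11.15.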

Additional observations from a re-analysis of the deposited data

Results flagged for a closer look

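The GW4064 effects on *Nr0b2* differed by 2.59 between WT and Whole body Fxr KO mice (unadjusted p = 5.64e-05, adjusted p = 0.193 in limma) and by 1.65 between Liver Fxr KO and Whole body Fxr KO mice (unadjusted p = 0.0034, adjusted p = 0.815), and those on *Klb* by 0.67 between Liver Fxr KO and Whole body Fxr KO mice (unadjusted p = 0.029, adjusted p = 0.970). In each case a test of the difference itself had an unadjusted p under 0.05, and none passed after adjustment over all genes. The direction of the *Nr0b2* differences was the same in 22 of 22 alternatives for each, with ranges of 1.80 to 2.98 and 1.36 to 1.87, and *Klb* ranged from 0.29 to 0.89. Alternatives that change only the estimate of the spread, such as the fit on the compared groups alone, could not move these differences. The counts of a kept direction are therefore in part fixed in advance.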

How the results depend on the processing

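The main count for WT mice, 1 of 5 genes with GW4064 (*Nr0b2*), went to 0 in the fit on the compared groups alone (adjusted p = 0.365), with a trended and robust prior (adjusted p = 0.0980), with the mean of each gene's probe sets (adjusted p = 0.0516), in the methods' t-test after adjustment (adjusted p = 0.706) and without both arrays with a wide spread (adjusted p = 0.0508). Over all genes, the fit on the compared groups and the adjusted t-test called 0, the trended prior 11 and the probe set mean 12. The main fit called 24. Where no gene passes, a count of 0 is not particular to the 5 genes. Leaving out each replicate in turn gave 0 to 1, with 1 to 268 called over all genes. For Whole body Fxr KO against WT with GW4064 the count of 1 went to 0 on the compared groups alone and in the adjusted t-test of the methods. On the compared groups alone 69 of all genes passed there, against 575 in the main fit. The counts of 0 for GW4064 in Liver Fxr KO mice (*Nr0b2*, unadjusted p = 0.0135) and for the knockouts with vehicle (*Klb*, unadjusted p = 0.0483) became 1 by the methods' t-test at its own thresholds. Leaving out each replicate gave 0 to 1 for Liver Fxr KO against WT with GW4064 and for the difference of effects between WT and Whole body Fxr KO mice, 1 in each without WT GW4064 replicate 3. The cause was not tested. Over the 5 genes, 949 of 1039 values kept their direction and side of the threshold, 12 fell short of it, 4 came past it, 74 moved and 0 reversed a called direction. For the methods' t-test at its own thresholds, the side counted was that of those unadjusted thresholds. The *Nr0b2* and *Klb* values named above for that test are among the 4.

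The mice were not treated as paired by replicate number. Between GW4064 and vehicle, the deviations of same-numbered arrays correlated by 0.339, 0.141 and 0.066 in Liver Fxr KO mice. The values were 0.095, 0.220 and 0.207 in Whole body Fxr KO mice and 0.005, 0.037 and -0.034 in WT. No comparison had all 3 above 0.1, and whether same-numbered mice within a knockout were tied to each other was not tested. With the replicate number as a block, 1 of 5 genes passed with GW4064 in WT, 1 in Whole body Fxr KO against WT with GW4064 and 0 in the other comparisons, the same counts as without it.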
